A study of Mus musculus with 48 samples.

Results

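Expression of 10 genes of the unfolded protein response was described in murine striatal progenitor cells treated with neuroprotective compounds. The genes were Hspa5, Hsp90b1, Hyou1, Dnajb9, Dnajc3, Sdf2l1, Pdia4, Pdia6, Herpud1 and Xbp1. They were taken by symbol from an RNA-Seq table of 27281 rows, of which 18178 carry a symbol, and the question asked was whether the ATF6 and XBP1 arm of this response moved in any compound. All 10 genes passed the minimum for testing, a mean log2 abundance of at least 1, which 13409 genes reached. The 48 samples are 16 conditions of 3 samples. Wild-type STHdhQ7 cells and mutant STHdhQ111 cells, which are homozygous for knocked-in mutant huntingtin, are each 1 conditionally immortalised line labelled as strain C57BL/6, and all samples spent 24 h in serum-free medium. Both lines received vehicle (DMSO), and the compounds had been dissolved in DMSO or in water. STHdhQ111 cells alone received the compounds, 14 in number. Those at 10 µM were diacylglycerol kinase inhibitor II (DKI), cyproheptadine, loxapine, meclizine and selisistat. Pizotifen was given at 5 µM and cysteamine at 250 µM. Sodium butyrate was given at 1 mM, 4-deoxypyridoxine (DOP) at 4 mM, fingolimod phosphate at 250 nM and trichostatin A at 10 nM. Nortriptyline was given at 1 nM, and nicotinamide and haloperidol at 0.5 nM.

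Proteins of the secretory pathway fold in the endoplasmic reticulum (ER), where chaperones hold unfolded chains and disulfide isomerases form and rearrange their disulfide bonds. When unfolded chains accumulate, membrane sensors start the unfolded protein response. ATF6 moves to the Golgi and is cut into a transcription factor, IRE1 splices the Xbp1 mRNA so that it encodes an active factor, and PERK slows translation and favours ATF4. The ATF6 and XBP1 factors act on chaperone and ER-associated degradation genes through ER stress elements in their promoters. The values used here are per gene and do not tell spliced from unspliced Xbp1 RNA.

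The promoters of the 10 genes were searched for known elements of this response. RefSeq promoter windows of GRCm38.p6, from 250 bases before to 50 bases after the annotated start, were found for 9 of the 10 genes, all but Hyou1. The ER stress element was searched on both strands as CCAAT, 9 further bases and CCACG, and it was present in the windows of 4 genes, Hspa5, Hsp90b1, Pdia6 and Dnajc3, against 0.119% of all 32851 windows. ER stress element II, searched as ATTGG, 1 further base and CCACG, was present in the window of Herpud1 and in 0.0365% of all windows. The letters CCACG alone, which both elements contain, was present in 8 of the 9 windows and in 32.8% of all windows. The core TGACGTG of the UPR element was present in the window of Hspa5 and in 2.01% of all windows. None of these letters was found in the Xbp1 window. These matches are descriptions of the letters and not measured binding sites. The stretches that hold the elements are printed to show how near to the start they lie, in the direction of the gene, with matches to either ER stress element or to TGACGTG in capitals. For Hspa5 the 250 bases before the RefSeq start are given (chr2:34771840-34772089, plus strand), and the GENCODE gene model begins inside them. For Hsp90b1 (chr10:86705518-86705671, minus strand), Pdia6 (chr12:17266476-17266524, plus strand), Dnajc3 (chr14:118937812-118937860, plus strand) and Herpud1 (chr8:94386362-94386402, plus strand) the matches are given with 15 bases on each side.
Hspa5: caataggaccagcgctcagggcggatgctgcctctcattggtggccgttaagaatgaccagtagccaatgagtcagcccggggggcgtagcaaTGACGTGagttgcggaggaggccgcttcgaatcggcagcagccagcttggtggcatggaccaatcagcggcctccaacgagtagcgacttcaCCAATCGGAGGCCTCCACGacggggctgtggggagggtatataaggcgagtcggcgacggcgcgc
Hsp90b1: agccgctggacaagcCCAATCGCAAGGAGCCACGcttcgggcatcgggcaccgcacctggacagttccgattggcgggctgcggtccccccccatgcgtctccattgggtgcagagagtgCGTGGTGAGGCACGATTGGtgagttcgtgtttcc
Pdia6: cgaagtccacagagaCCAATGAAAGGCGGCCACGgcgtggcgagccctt
Dnajc3: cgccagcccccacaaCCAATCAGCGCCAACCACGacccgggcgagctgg
Herpud1: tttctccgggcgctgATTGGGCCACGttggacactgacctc
The match of Hspa5 begins 65 bases before the start, that of Pdia6 98 bases, that of Dnajc3 105 bases and that of Herpud1 52 bases. Hsp90b1 has 2 matches, which begin 212 and 107 bases before the start, the nearer of them on the other strand.

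The authors' values are log2 abundances without read counts, so the depth behind each value is unknown. Across genes the correlation between samples of a condition was 0.9964 to 0.9994. Samples of a condition were collected at different days or times, so they were not repeats of 1 harvest. The labels do not say that they came from separately started cultures. The p-values therefore measure only the spread between these samples of 1 line. The cells carried Vim at a mean log2 abundance of 15.42, Foxp1 at 9.88 and Map2 at 8.37. Other progenitor markers were lower, with Nes at 5.51, Sox2 at 5.11, Tubb3 at 4.72 and Pax6 at 3.06, and in STHdhQ111 cells with vehicle Nes was at 4.96 and Sox2 at 4.81. The striatal neuron genes Bcl11b (0.18), Ppp1r1b (1.93) and Drd1 (-2.18) were near the lowest values of the table. The fibroblast genes Col1a1 (14.52), Col1a2 (12.70) and Col3a1 (12.25) were high, while Dcn was at 7.44 and Lum at -0.38. The leukocyte gene Ptprc (10.20) and the endothelial gene Pecam1 (8.35) were also high, but the other measured genes of their lists were low. Those were Csf1r (2.01), Cx3cr1 (-1.81) and Aif1 (-2.18) of the immune list, and Kdr (3.12) and Cdh5 (0.22) of the endothelial list. Part of the markers of the labelled cell type was thus present beside part of those of other types. Loxapine, meclizine and pizotifen shared no combination of collection day and time with the STHdhQ111 vehicle control. Cyproheptadine and DKI shared 2 combinations with it in 3 samples. For compounds above 1 nM without shared combinations, results of the 10 genes were therefore also computed against another reference. It consists of compounds at or below 1 nM collected at their own days and times, called the same-time reference here. The markers, the further pathway lists and the genes found by promoter letters were not compared with it.

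For each gene 1 linear model covered all samples, with the collection day as a term (limma), and a gene was called at a Benjamini-Hochberg adjusted p under 0.05 over all 13409 genes. Differences are log2 differences to the STHdhQ111 vehicle control unless another pair is named, and all compounds share that control. The ER chaperone genes were higher in 5 of the 14 compounds. The study had already found the same compounds to cluster together, apart from the STHdhQ111 vehicle, in its gene expression data. Its metabolite profiles then separated them into groups. The match with this set is therefore not independent, since the RNA data are the same. The study's Group A holds loxapine, cyproheptadine and pizotifen, and its Group B holds meclizine and DKI. With cyproheptadine 9 of the 10 genes were called higher, against 17.5% of all genes tested. With pizotifen 9 of the 10 were called higher, against 8.86%. With loxapine 8 were called higher, against 10.1%, and with meclizine 8, against 13.1%. None of the 10 was called lower in these 4 compounds, against 18.2% of all genes with cyproheptadine, 9.07% with pizotifen, 11.8% with loxapine and 13.6% with meclizine. With DKI 8 were called higher, against 20.4%, and Dnajc3 alone was called lower, a count below the 21.9% of all genes called lower. The median log2 difference of the 10 genes was 0.50 with cyproheptadine, 0.37 with pizotifen, 0.33 with DKI, 0.28 with meclizine and 0.27 with loxapine. The median over all genes tested was within 0.01 of 0 in each of these comparisons.

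**Figure D1:**
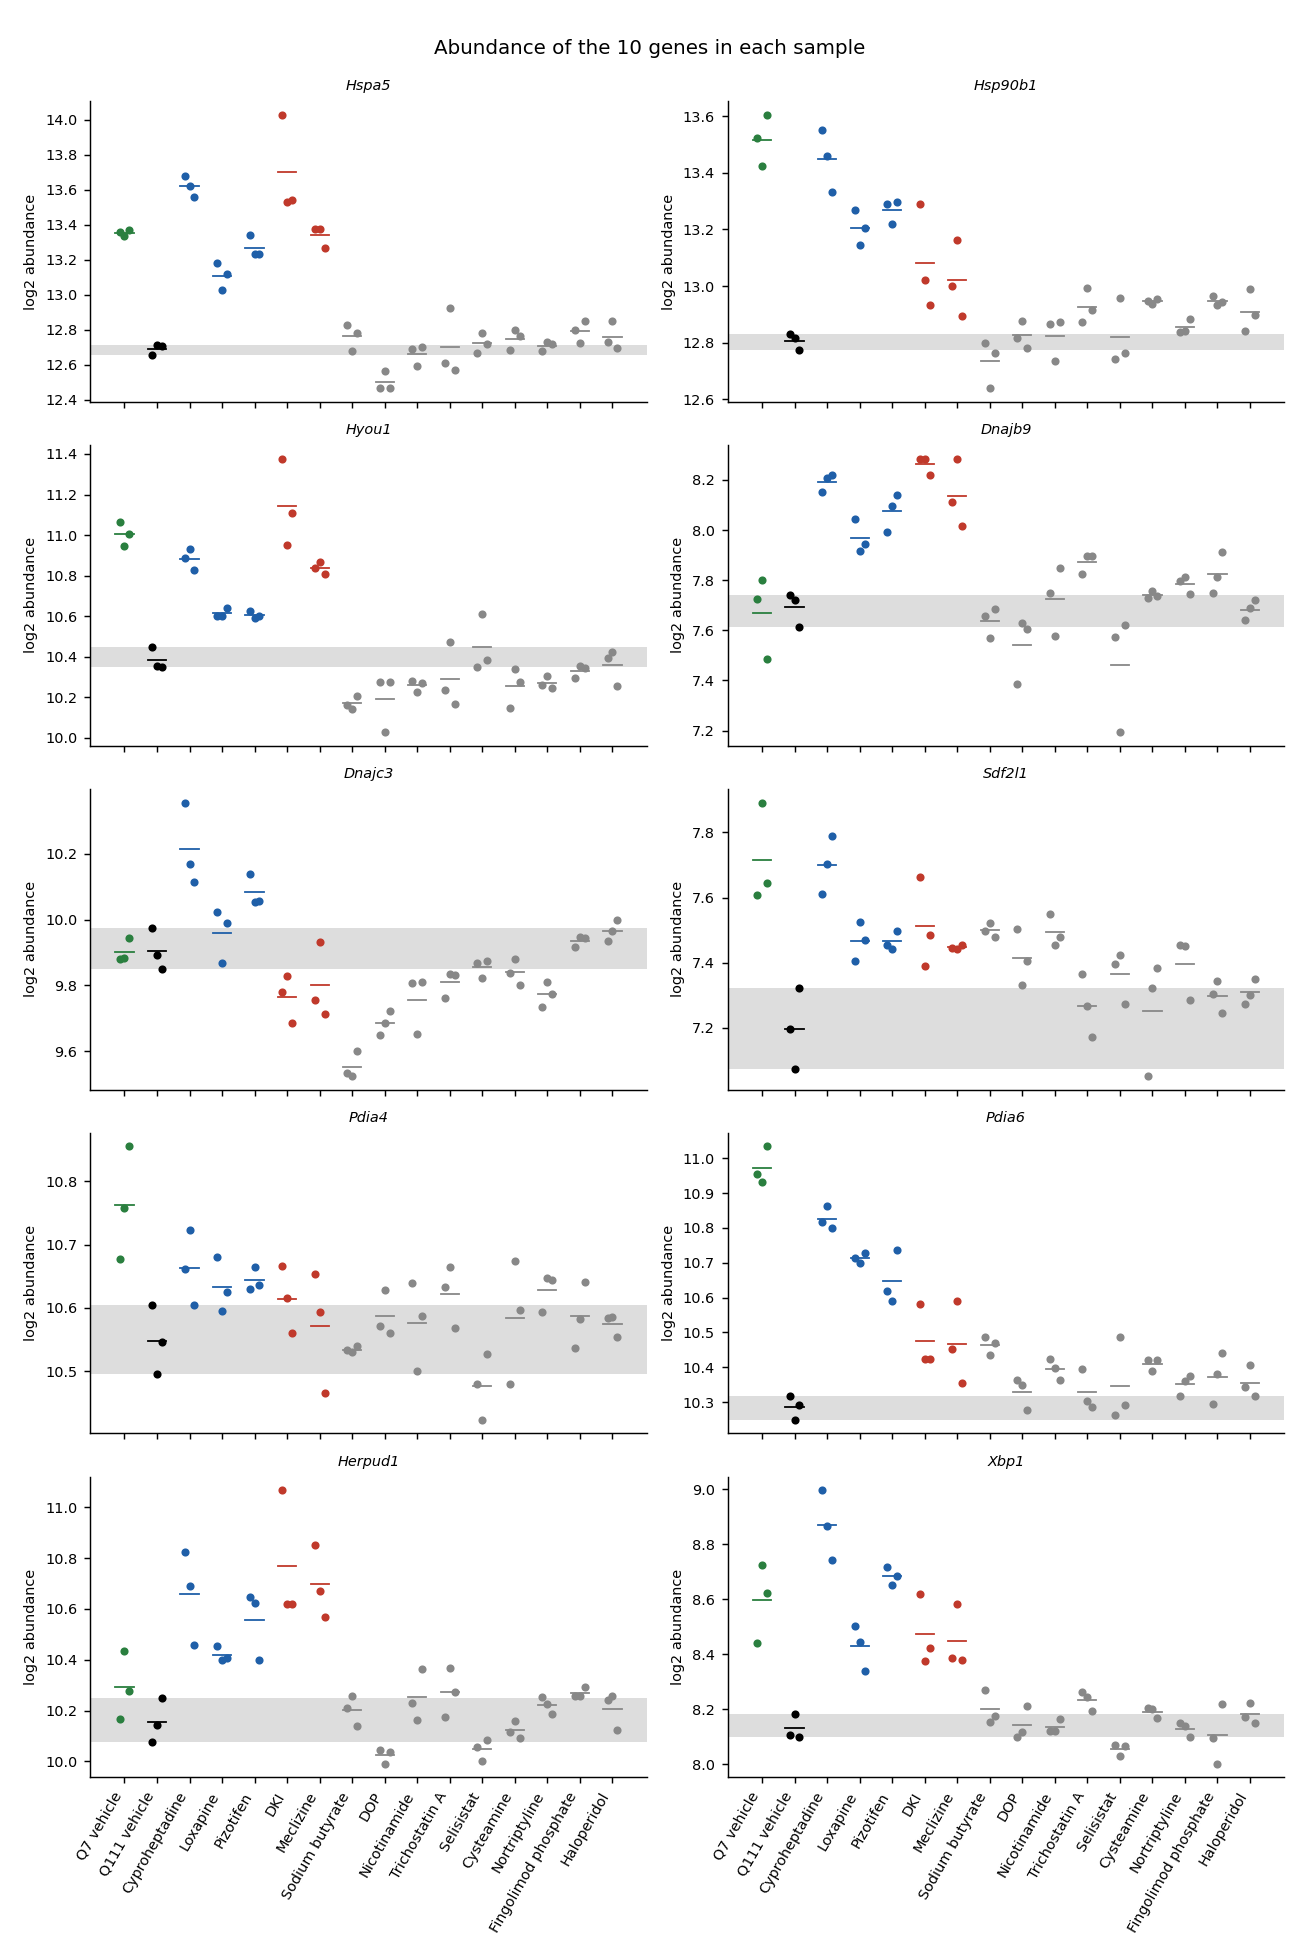
Log2 abundance (vertical axis, authors' normalized values) of each of the 10 genes in each of the 48 samples, by condition. Points are samples, bars are means of 3 samples and the grey band spans the STHdhQ111 vehicle samples; green marks STHdhQ7, black the STHdhQ111 vehicle, blue Group A, red Group B and grey the remaining compounds. The 5 compounds of Groups A and B stand above the band for Hspa5, where their lowest sample is at 13.02, while the remaining compounds stay between 12.46 and 12.92.

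Hspa5 (ENSMUSG00000026864, chromosome 2, 34771970 to 34777547, plus strand of GRCm38) encodes BiP, the main Hsp70 chaperone of the ER lumen. It was at 12.66, 12.71 and 12.71 in the STHdhQ111 vehicle samples. It was at 14.03, 13.53 and 13.54 with DKI, at 13.68, 13.62 and 13.56 with cyproheptadine and at 13.37, 13.38 and 13.27 with meclizine. Every sample of these 3 compounds was above every vehicle sample, and replicate 1 of DKI stood above the other two. It was at 13.34, 13.23 and 13.23 with pizotifen and at 13.18, 13.02 and 13.12 with loxapine. These samples were also all above the vehicle samples. The log2 difference was 1.01 with DKI (standard error 0.085, 2.01-fold, adjusted p = 3.86e-12, limma) and 0.93 with cyproheptadine (standard error 0.085, 1.90-fold, adjusted p = 1.58e-10). It was 0.65 with meclizine (standard error 0.084, adjusted p = 2.31e-07, limma), 0.58 with pizotifen (standard error 0.084, adjusted p = 6.49e-06) and 0.42 with loxapine (standard error 0.084, adjusted p = 0.000436). The call was kept in every alternative tried for these compounds. Without replicate 1 of DKI the difference of DKI was 0.84. In the order of the 16 condition means, DKI (13.70 ± 0.28, SD, n = 3) and cyproheptadine (13.62 ± 0.06) came first and did not differ beyond their spread, with a log2 difference of cyproheptadine minus DKI of -0.08 and a 95% interval from -0.25 to 0.09. STHdhQ7 vehicle (13.35 ± 0.02), meclizine (13.34 ± 0.06), pizotifen (13.27 ± 0.06) and loxapine (13.11 ± 0.08) followed. DOP was lowest (12.50 ± 0.06), and its samples, at 12.46, 12.56 and 12.47, were all below the vehicle samples, but the difference of -0.19 was not called (95% interval -0.36 to -0.02, adjusted p = 0.103, limma).

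Hyou1 (ENSMUSG00000032115, chromosome 9, 44379490 to 44392369, plus strand) encodes a large ER chaperone of the Hsp70 family that also serves BiP as a nucleotide exchange factor. It was at 10.45, 10.35 and 10.35 in the vehicle samples, at 11.38, 10.95 and 11.11 with DKI and at 10.84, 10.87 and 10.81 with meclizine. It was at 10.89, 10.93 and 10.82 with cyproheptadine. All samples of these 3 compounds were above those of the vehicle, and DKI samples were above those of the other two. Its difference to the vehicle was 0.76 with DKI (standard error 0.077, adjusted p = 2.68e-10, limma), 0.50 with cyproheptadine (standard error 0.077, adjusted p = 3.18e-06) and 0.45 with meclizine (standard error 0.076, adjusted p = 1.94e-05). With loxapine it was 0.23 (adjusted p = 0.0250, limma) and with pizotifen 0.22 (adjusted p = 0.0369). The former call was lost without any 1 sample of loxapine or without replicate 2 or 3 of the vehicle, and the latter without any 1 sample of pizotifen, without replicate 2 or 3 of the vehicle or with no filter on low genes. Hsp90b1 (ENSMUSG00000020048, chromosome 10, 86690209 to 86705509, minus strand), which encodes GRP94, the Hsp90 chaperone of the ER, followed another order. Gm15344, Gm25745 and 1810014B01Rik overlap it. It was at 12.83, 12.82 and 12.77 with vehicle, at 13.55, 13.46 and 13.33 with cyproheptadine and at 13.29, 13.22 and 13.30 with pizotifen. It was at 13.27, 13.14 and 13.20 with loxapine, at 13.29, 13.02 and 12.93 with DKI and at 13.00, 13.16 and 12.90 with meclizine. The Group A samples lay farther from the vehicle than most Group B samples. On the log2 scale it was higher by 0.64 with cyproheptadine (standard error 0.074, adjusted p = 1.90e-08, limma), 0.46 with pizotifen (standard error 0.073, adjusted p = 2.52e-05) and 0.40 with loxapine (standard error 0.073, adjusted p = 0.000145). It was 0.27 with DKI (adjusted p = 0.00268, limma), a call lost without replicate 1 of DKI (0.17), and 0.21 with meclizine (adjusted p = 0.0280). The call of meclizine was lost in 7 of 15 alternatives, among them without any 1 vehicle sample and without replicate 1 or 2 of meclizine.

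Dnajb9, Dnajc3 and Sdf2l1 serve BiP and its partners. Dnajb9 (ENSMUSG00000014905, chromosome 12, 44205559 to 44210326, minus strand, with Mir5627 on the other strand) encodes ERdj4, a J-domain co-chaperone. It was at 7.74, 7.72 and 7.61 with vehicle and at 8.28, 8.28 and 8.22 with DKI. It was at 8.15, 8.21 and 8.22 with cyproheptadine and at 8.11, 8.28 and 8.01 with meclizine. All 9 treated samples were above the vehicle samples. The gene was higher by 0.57 with DKI (standard error 0.085, adjusted p = 1.01e-06, limma), 0.50 with cyproheptadine (adjusted p = 1.58e-05), 0.45 with meclizine (adjusted p = 0.000107), 0.38 with pizotifen (adjusted p = 0.00119) and 0.28 with loxapine (adjusted p = 0.0162), the last of these lost without replicate 3 of the vehicle or replicate 1 of loxapine. Dnajc3 (ENSMUSG00000022136, chromosome 14, 118937976 to 118981697, plus strand) encodes p58IPK, a lumenal J-domain co-chaperone also known as an inhibitor of PERK. It was at 9.97, 9.89 and 9.85 with vehicle, at 10.36, 10.17 and 10.12 with cyproheptadine and at 10.14, 10.05 and 10.06 with pizotifen. It was at 9.78, 9.83 and 9.69 with DKI, at 9.75, 9.93 and 9.71 with meclizine and at 10.02, 9.87 and 9.99 with loxapine. Cyproheptadine and pizotifen samples were above the vehicle samples and DKI samples below them, while those of loxapine and meclizine overlapped the vehicle. The log2 difference was 0.31 with cyproheptadine (standard error 0.056, adjusted p = 3.74e-05, limma), 0.18 with pizotifen (standard error 0.055, adjusted p = 0.0217) and -0.14 with DKI (standard error 0.056, adjusted p = 0.0359). The call of DKI was lost without its replicate 1 or 3, without replicate 1 or 2 of the vehicle and with only the DKI and vehicle samples in the fit. That of pizotifen was lost without its replicate 1, without replicate 2 or 3 of the vehicle and against the same-time reference. With loxapine the difference was 0.05 (95% interval -0.06 to 0.17, adjusted p = 0.535, limma), but 0.20 and called against the same-time reference, and with meclizine -0.11 (-0.22 to 0.01, adjusted p = 0.160), but -0.18 and called without replicate 2 of meclizine. Sdf2l1 (ENSMUSG00000022769, chromosome 16, 17130138 to 17132383, minus strand) encodes a soluble partner of ER J-domain proteins. It was at 7.20, 7.07 and 7.32 with vehicle and at 7.61, 7.70 and 7.79 with cyproheptadine, above every vehicle sample, with a log2 difference of 0.50 (standard error 0.080, adjusted p = 4.96e-06, limma). The difference was 0.31 with DKI, 0.27 with loxapine, 0.27 with pizotifen and 0.25 with meclizine, all called (adjusted p = 0.00152, 0.0121, 0.0147 and 0.0160, limma). Against the same-time reference Sdf2l1 lost its call for loxapine (0.02), pizotifen (0.16) and meclizine (0.14), as it did in all 3 without replicate 2 of the vehicle (0.20, 0.20 and 0.18). The call was also lost without replicate 2 of loxapine and without replicate 3 of pizotifen.

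Pdia4 and Pdia6 encode protein disulfide isomerases of the ER. Pdia6 was called higher in the 5 compounds and Pdia4 in none, a difference between the genes that was not tested. Pdia6 (ENSMUSG00000020571, chromosome 12, 17266545 to 17284770, plus strand, with Atp6v1c2 on the other strand) was at 10.32, 10.25 and 10.29 with vehicle, its lowest condition mean of all. It was at 10.82, 10.86 and 10.80 with cyproheptadine, at 10.71, 10.70 and 10.73 with loxapine and at 10.62, 10.59 and 10.74 with pizotifen. It was at 10.58, 10.42 and 10.42 with DKI and at 10.45, 10.59 and 10.35 with meclizine. All were above the vehicle samples, and the lowest Group A sample, from pizotifen, was only just above the highest Group B sample, from meclizine. It was higher by 0.54 with cyproheptadine (standard error 0.055, adjusted p = 1.45e-09, limma), 0.43 with loxapine (standard error 0.054, adjusted p = 6.95e-07) and 0.36 with pizotifen (standard error 0.054, adjusted p = 9.79e-06). It was 0.19 with DKI (adjusted p = 0.00497, limma), lost without replicate 1 of DKI (0.13), and 0.18 with meclizine (adjusted p = 0.0117), lost without its replicate 2 (0.12), without replicate 2 of the vehicle, against the same-time reference and with only these samples in the fit. Pdia4 (ENSMUSG00000025823, chromosome 6, 47796141 to 47813430, minus strand, which contains Mir704) was at 10.60, 10.49 and 10.55 with vehicle and at 10.66, 10.72 and 10.60 with cyproheptadine. Its difference was 0.11 with cyproheptadine (95% interval 0.01 to 0.22, adjusted p = 0.0794, limma), 0.10 with pizotifen (-0.01 to 0.20, adjusted p = 0.209), 0.08 with loxapine (-0.02 to 0.19, adjusted p = 0.247), 0.07 with DKI (-0.04 to 0.17, adjusted p = 0.326) and 0.02 with meclizine (-0.08 to 0.13, adjusted p = 0.799). Its condition means spanned 0.29, the narrowest range of the 10 genes, against 1.20 for Hspa5, the widest.

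Herpud1 (ENSMUSG00000031770, chromosome 8, 94386438 to 94395377, plus strand, with Gm15890 on the other strand) encodes an ER membrane protein of the degradation machinery. It was at 10.07, 10.14 and 10.25 with vehicle, at 11.07, 10.62 and 10.62 with DKI and at 10.85, 10.67 and 10.57 with meclizine. It was at 10.83, 10.69 and 10.46 with cyproheptadine, at 10.65, 10.62 and 10.40 with pizotifen and at 10.45, 10.40 and 10.40 with loxapine. All of these samples were above the vehicle samples, and replicate 1 of DKI was again the highest. Herpud1 was higher by 0.62 with DKI (standard error 0.089, adjusted p = 4.87e-07, limma), 0.54 with meclizine (standard error 0.088, adjusted p = 1.33e-05) and 0.50 with cyproheptadine (standard error 0.089, adjusted p = 2.50e-05). It was 0.40 with pizotifen (adjusted p = 0.00128, limma) and 0.26 with loxapine (adjusted p = 0.0290), the latter lost without any 1 sample of loxapine, without replicate 1 or 2 of the vehicle and against the same-time reference. Xbp1 (ENSMUSG00000020484, chromosome 11, 5520659 to 5525893, plus strand) encodes the transcription factor itself. It was at 8.11, 8.18 and 8.10 with vehicle, at 8.997, 8.87 and 8.74 with cyproheptadine and at 8.72, 8.65 and 8.68 with pizotifen. It was at 8.50, 8.45 and 8.34 with loxapine, at 8.62, 8.38 and 8.42 with DKI and at 8.39, 8.58 and 8.38 with meclizine. Every sample of the 5 compounds was above the vehicle, and those of cyproheptadine were above all other samples of the series. The log2 difference was 0.74 with cyproheptadine (standard error 0.068, 1.67-fold, adjusted p = 1.80e-10, limma) and 0.55 with pizotifen (standard error 0.067, adjusted p = 4.40e-07). It was 0.34 with DKI (adjusted p = 9.03e-05, limma), 0.32 with meclizine (adjusted p = 0.000411) and 0.30 with loxapine (adjusted p = 0.00133). None of these 5 calls was lost in an alternative.

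**Figure D2:**
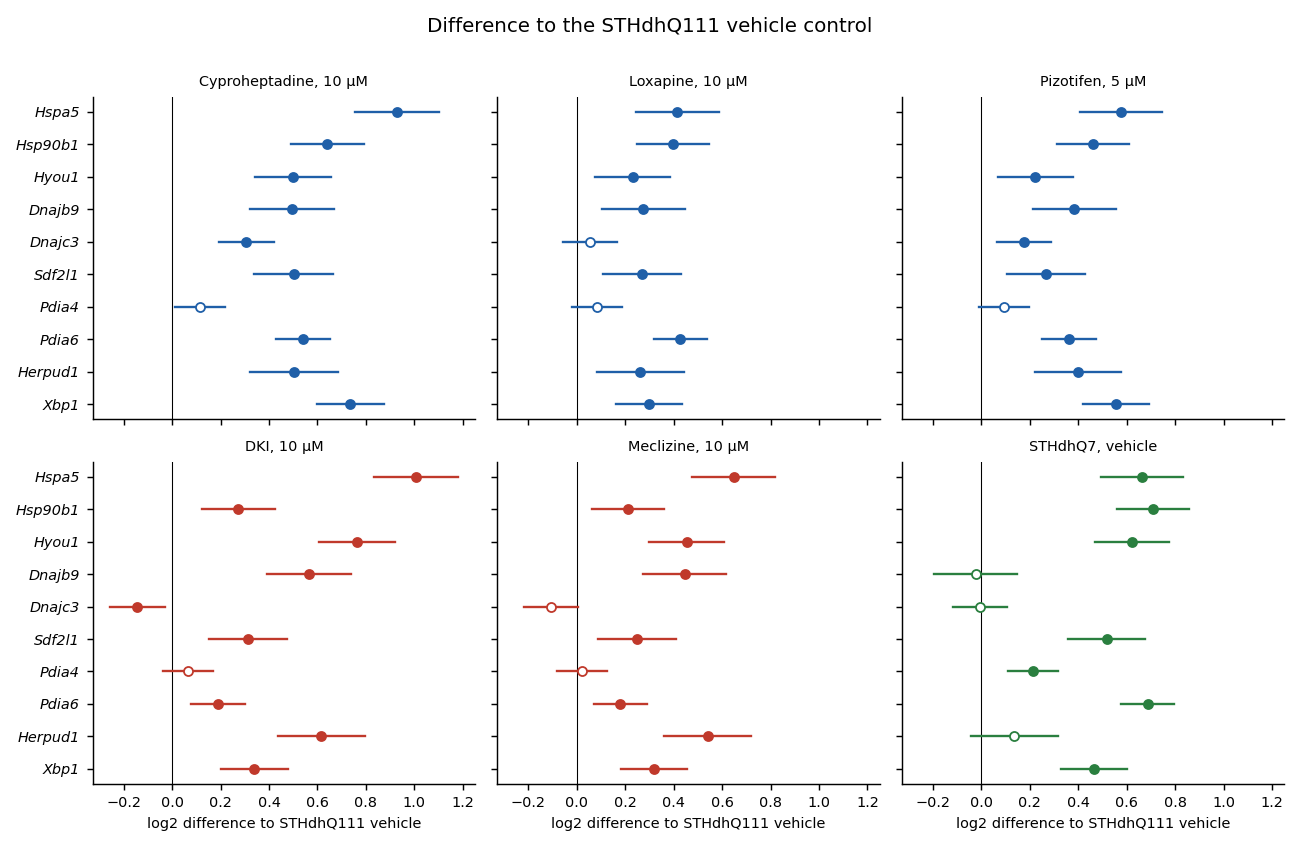
Log2 difference to the STHdhQ111 vehicle control (horizontal axis) for the 10 genes in the 5 compounds of Groups A and B and in STHdhQ7 vehicle cells; lines are 95% intervals of the model, filled points were called and open points were not. Hspa5 lies at 1.01 with DKI and at 0.93 with cyproheptadine, while Pdia4 lies between 0.02 and 0.11 in the 5 compounds.

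In 5 of the 10 genes, Hspa5, Dnajb9, Hyou1, Herpud1 and Xbp1, the calls of meclizine were kept when the same-time reference replaced the vehicle. Those of Hsp90b1, Pdia6 and Sdf2l1 were lost, Dnajc3 was called lower (-0.17, adjusted p = 0.0222, limma), and the median fell from 0.28 to 0.20. Under the same reference 7 genes were called higher with pizotifen and 7 with loxapine. Leaving out replicate 2 of the STHdhQ111 vehicle control left 5 genes called with meclizine and 5 with loxapine in place of 8, and 5 also remained for loxapine without its own replicate 1 or 2. With only the DKI and vehicle samples in the fit, 5 genes were called for DKI in place of 9. The share of all genes called was not computed for these alternatives, so their counts are set only beside those of the main fit. Fibroblast markers moved with some of these results. Of 4 tested, Col1a1, Col1a2 and Col3a1 were lower with cyproheptadine, DKI and meclizine, Col1a2 and Col3a1 were lower with pizotifen, and none was called with loxapine. The summed level of the fibroblast list, on the log2 scale, was 15.16 to 15.36 with vehicle, 14.58 to 14.75 with cyproheptadine, 14.26 to 14.54 with DKI, 14.70 to 14.72 with meclizine, 14.90 to 15.01 with pizotifen and 15.06 to 15.23 with loxapine, and Lum was near the lowest values in every sample. The summed level of the progenitor list, of which Vim makes up most, was 15.43 to 15.55 with vehicle, 15.16 to 15.24 with cyproheptadine, 14.85 to 15.11 with DKI and 15.21 to 15.28 with meclizine, with Vim called lower in these 3. Members of the progenitor list moved both ways, since Tubb3 was called higher in the same 3 compounds, Foxp1 was lower with cyproheptadine and DKI, Foxp2 was lower with cyproheptadine, and Dlx2, Foxp2 and Map2 were lower with loxapine. Slc1a2, an astrocyte marker, was lower in all of the 5 compounds but loxapine, and Kdr, an endothelial marker, was higher in all but meclizine. The part of these markers in the results was not tested. In such bulk samples fewer cells of a type and less RNA per cell cannot be told apart.

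In the remaining compounds few of the 10 genes were called. With sodium butyrate, an inhibitor of histone deacetylases, 2 were called higher, against 19.6% of all genes, and 2 lower, against 17.8%. Pdia6, at 10.49, 10.44 and 10.47, differed by 0.18 (adjusted p = 0.00891, limma) and Sdf2l1, at 7.50, 7.52 and 7.48, by 0.30 (adjusted p = 0.00250). Dnajc3, at 9.53, 9.52 and 9.60, was at its lowest mean of all conditions and fell by 0.35 (standard error 0.055, adjusted p = 4.11e-06, limma), and Hyou1, at 10.16, 10.14 and 10.20, fell by 0.21 (adjusted p = 0.0257). The call of Hyou1 was lost without replicate 1 of the vehicle and without replicate 1 or 2 of sodium butyrate, and that of Pdia6 without replicate 2 of the vehicle. These counts were near the shares over all genes, and against the same-time reference only Dnajc3 remained called of the 10 genes. With DOP, Dnajc3, at 9.65, 9.69 and 9.72, fell by 0.22 (adjusted p = 0.00396, limma), against 11.2% of genes called lower, and Sdf2l1, at 7.50, 7.33 and 7.41, was higher by 0.22 (adjusted p = 0.0479), against 8.93% called higher. Both counts were near the shares over all genes. Against the same-time reference Sdf2l1 differed by -0.03 with DOP and neither gene was called. The call of Sdf2l1 was also lost without replicate 1 or 2 of the vehicle and without replicate 1 or 3 of DOP. With nicotinamide, Sdf2l1 alone was called, at 7.55, 7.45 and 7.48 and a difference of 0.30 (adjusted p = 0.0129, limma), against 2.82% called higher and 7.59% called lower, and this call was lost without replicate 1 or 2 of the vehicle and without replicate 1 of nicotinamide. The vehicle mean of Sdf2l1 was the lowest of all 16 conditions.

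In 6 compounds none of the 10 genes was called. The share of all genes called was 13.1% with trichostatin A, 7.83% with cysteamine, 3.83% with nortriptyline, 0.515% with selisistat, 0.0597% with fingolimod phosphate and 0% with haloperidol (limma). At an unadjusted p under 0.05, 2 of the 10 genes passed with selisistat, 2 with nortriptyline, 1 with trichostatin A, 1 with cysteamine, 0 with fingolimod phosphate and 0 with haloperidol. The share of all genes at this unadjusted threshold was not computed, so these counts are not read as a result about the 10 genes. The differences of the 10 genes ran from -0.03 to 0.11 with haloperidol and from -0.05 to 0.14 with fingolimod phosphate. They ran from -0.13 to 0.14 with cysteamine, from -0.10 to 0.18 with trichostatin A, from -0.13 to 0.20 with nortriptyline and from -0.23 to 0.17 with selisistat. The 95% intervals reached at most 0.36, in nortriptyline, and -0.40, in selisistat, where replicate 2 had Dnajb9 at 7.19 beside 7.57 and 7.62. The interval of Hspa5 with haloperidol was -0.10 to 0.24, below the difference of 0.42 seen with loxapine.

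Wild-type STHdhQ7 cells had higher values than STHdhQ111 cells with vehicle for 7 of the 10 genes, against 29.2% of all genes called higher and 26.6% called lower. Hsp90b1 was at 13.52, 13.42 and 13.60 in STHdhQ7 cells, a log2 difference of 0.71 (standard error 0.073, adjusted p = 1.12e-10, limma). Pdia6 was at 10.95, 10.93 and 11.03, a difference of 0.69 (standard error 0.054, adjusted p = 8.61e-14, limma). Hspa5 was at 13.36, 13.33 and 13.37, a difference of 0.66 (standard error 0.084, adjusted p = 1.34e-08, limma). Samples of the lines did not overlap in these genes, nor in Hyou1 (0.62), Sdf2l1 (0.52), Xbp1 (0.47) or Pdia4 (0.21), all called. The share of all genes without overlap between the lines was not computed. Pdia4, which no compound moved to a call, was at 10.68, 10.76 and 10.86 (adjusted p = 0.000431, limma). Dnajb9 differed by -0.02 (95% interval -0.19 to 0.15, adjusted p = 0.836, limma), Dnajc3 by -0.00388 (-0.12 to 0.11, adjusted p = 0.958) and Herpud1 by 0.14 (-0.04 to 0.32, adjusted p = 0.193). The median difference of the 10 genes was 0.49, and 0.00398 over all genes. The lines also differed in progenitor markers. Of 10 tested, Nes (10.95 in STHdhQ7 and 4.96 in STHdhQ111), Vim, Sox2, Pax6 and Tubb3 were higher and Foxp1 and Foxp2 lower in STHdhQ7 cells, and their summed log2 level was 15.60 to 15.77 against 15.43 to 15.55. Of other cell types, Col1a2, Pdgfra, Mbp and the leukocyte gene Ptprc (7.86 against 10.59) were lower and Aldh1l1 higher in STHdhQ7 cells. Each line is 1 clone, and the huntingtin genotype cannot be told apart from other differences between the lines.

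Group A and Group B were then compared directly, as means of 3 and of 2 compounds, without the vehicle. Of the 10 genes, 4 were called higher in Group A, against 19.9% of all genes, and 3 lower, against 21.4%. The count lower was near the share over all genes. Dnajc3 was higher by 0.30 (10.09 ± 0.14, SD, n = 9, against 9.78 ± 0.09, n = 6, standard error 0.036, limma), Pdia6 by 0.26 (10.73 ± 0.09 against 10.47 ± 0.10), Hsp90b1 by 0.26 (13.31 ± 0.13 against 13.05 ± 0.15) and Xbp1 by 0.20 (8.66 ± 0.21 against 8.46 ± 0.11). Hyou1 was lower in Group A by 0.29 on the log2 scale (10.70 ± 0.14 against 10.99 ± 0.22), Hspa5 by 0.19 (13.33 ± 0.24 against 13.52 ± 0.27) and Herpud1 by 0.19 (10.54 ± 0.16 against 10.73 ± 0.19). Pdia6 was the only gene of the 10 in which the samples of the groups did not overlap, and the share of all genes without overlap was not computed. Pdia4 (0.05, 95% interval -0.01 to 0.12), Dnajb9 (-0.12, -0.23 to -0.01) and Sdf2l1 (0.06, -0.04 to 0.17) were not called. These are differences of group means, in which pizotifen was at 5 µM and the other compounds at 10 µM. The standard errors and calls rest on the spread between samples within each compound. The spread between compounds of a group does not enter them, so they do not carry over to other compounds. Loxapine also shared no combination of collection day and time with either compound of Group B. Single compounds did not always follow the differences of group means. Xbp1 had a lower mean with loxapine (8.43) than with DKI (8.47) and meclizine (8.45), and Hspa5 had a higher mean with cyproheptadine (13.62) than with meclizine (13.34). Hyou1 was at a mean of 10.88 with cyproheptadine and 10.84 with meclizine. The calls of Hspa5 (-0.10) and Herpud1 (-0.11) were lost without replicate 1 of DKI.

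**Figure D3:**
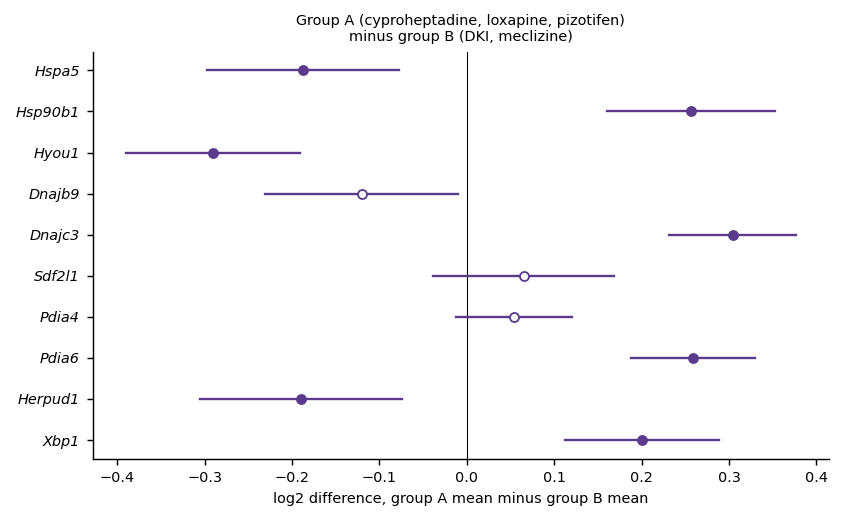
Log2 difference of the mean of Group A minus the mean of Group B (horizontal axis) for each of the 10 genes, with 95% intervals of the model; filled points were called and open points were not. Dnajc3, Pdia6, Hsp90b1 and Xbp1 lie to the right of 0, from 0.20 to 0.30, and Hspa5, Herpud1 and Hyou1 to the left, from -0.29 to -0.19.

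Cyproheptadine, loxapine, meclizine and DKI were given at the same dose of 10 µM for 24 h, so their 6 pairs were compared at matched dose, with p-values adjusted over all genes within each pair. The vehicle does not enter these pairs. Loxapine shared no combination of collection day and time with any of the other compounds. Cyproheptadine and DKI had the same combinations, none of them on day 1. No same-time reference was computed for the pairs. Cyproheptadine exceeded loxapine in 5 of the 10 genes, against 4.91% of all genes called higher: Hspa5 by 0.51 (95% interval 0.34 to 0.68), Xbp1 by 0.44 (0.30 to 0.58), Hyou1 by 0.27, Dnajc3 by 0.25 and Hsp90b1 by 0.24. Without replicate 1 or 2 of cyproheptadine, without replicate 2 of loxapine, or with only their own samples in the fit, 3 were called. Cyproheptadine exceeded meclizine in 6 genes, against 9.83%: Hsp90b1 by 0.43, Xbp1 by 0.42, Dnajc3 by 0.41, Pdia6 by 0.36, Hspa5 by 0.28 and Sdf2l1 by 0.25. For Hyou1 the difference was 0.04 (-0.11 to 0.20), for Herpud1 -0.04 (-0.22 to 0.14) and for Dnajb9 0.05 (-0.12 to 0.22), none of them called. The call of Hspa5 was lost without replicate 3 of meclizine or replicate 1 of cyproheptadine, and that of Sdf2l1 without any 1 sample of meclizine and without replicate 2 or 3 of cyproheptadine. With only their own samples in the fit, 1 gene was called. Against DKI, cyproheptadine was higher in 4 genes, against 13.9%, namely Dnajc3 by 0.45, Xbp1 by 0.40, Hsp90b1 by 0.37 and Pdia6 by 0.35. It was lower in Hyou1 (-0.26), a count near the 14.7% of all genes called lower, and this call was lost without replicate 1 of DKI (-0.14). Loxapine exceeded meclizine in Pdia6 (0.25) and Dnajc3 (0.16), a count near the 11.7% of all genes called higher. It was lower than meclizine in Herpud1 (-0.28), Hspa5 (-0.23) and Hyou1 (-0.22), against 12%. Without replicate 1 of meclizine or replicate 3 of loxapine 1 gene was called, without replicate 2 of loxapine 2, and without replicate 3 of meclizine or replicate 1 of loxapine 3. Loxapine exceeded DKI in Pdia6 (0.24) and Dnajc3 (0.20), a count near the 18.5% of all genes called higher. It was lower than DKI in Hspa5 (-0.59), Hyou1 (-0.53), Herpud1 (-0.35) and Dnajb9 (-0.29), against 18.6%. Of these, the call of Herpud1 was lost without replicate 1 of DKI (-0.20). Meclizine was lower than DKI in Hspa5 (-0.36) and Hyou1 (-0.31), against 4.3%, and neither was called without replicate 1 of DKI or with only their samples in the fit. Pizotifen and cyproheptadine share a tricyclic ring system with a methylpiperidine, with a thiophene ring in pizotifen in place of a benzene ring and a saturated bridge in place of a double bond, but pizotifen was given at 5 µM and cyproheptadine at 10 µM. Their differences to the vehicle were 0.58 and 0.93 for Hspa5, 0.55 and 0.74 for Xbp1, 0.46 and 0.64 for Hsp90b1 and 0.18 and 0.31 for Dnajc3, and no comparison is made between the doses.

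The ER chaperones were set beside 5 lists of further pathway genes. Among the other ER folding factors, such as calreticulin and further isomerases, 19 of 22 were called higher with cyproheptadine, 17 with pizotifen and 13 with loxapine, and none lower, against 17.5%, 8.86% and 10.1% of all genes called higher. With DKI 6 were higher and 2 lower, against 20.4% and 21.9%, and with meclizine 6 were higher and none lower, against 13.1% and 13.6%. The 6 higher with DKI were near the share over all genes. Their median difference was 0.33 with cyproheptadine, 0.27 with pizotifen, 0.22 with loxapine, 0.11 with meclizine and 0.10 with DKI. The Ero1l gene, an oxidase that recharges disulfide isomerases, was higher by 1.10 with meclizine, 1.11 with DKI and 1.02 with cyproheptadine. Calr was higher by 0.72 with cyproheptadine, and Fkbp14 was lower by 0.42 with DKI. Of 14 tested genes of translocation into and export from the ER, 13 were called higher with cyproheptadine, 11 with pizotifen and 6 with loxapine. None was lower, and 17.5%, 8.86% and 10.1% of all genes were called higher in these compounds. With DKI 5 were higher and 3 lower, and with meclizine 2 were higher and none lower, and of these the 2 higher with meclizine and the 3 lower with DKI were near the shares over all genes (13.1% and 21.9%). Sec61a1, the channel subunit, was higher by 0.61 with cyproheptadine, and Sec24d and Sec31a of the COPII coat fell by 0.31 and 0.24 with DKI. Of 14 tested genes of ER-associated degradation, 6 were higher with cyproheptadine, 5 with pizotifen, 3 with loxapine, 5 with DKI and 4 with meclizine. The shares of all genes called higher were 17.5%, 8.86%, 10.1%, 20.4% and 13.1% in the same order. With DKI 3 were lower, against 21.9%, and with meclizine 1, against 13.6%. The 3 lower with DKI were again near the share over all genes. Vimp, which encodes selenoprotein S, was higher by 0.79 with cyproheptadine, and the ubiquitin ligase gene Syvn1 was higher by 0.20 with loxapine and lower by 0.22 with DKI. Of the 6 sensors and proteases, Atf6 was called higher in all 5 compounds, by 0.83 with DKI, 0.51 with cyproheptadine, 0.31 with meclizine, 0.31 with pizotifen and 0.25 with loxapine. Ern1, which encodes IRE1, was higher by 0.57 with DKI and by 0.42 with meclizine. Eif2ak3, which encodes PERK, was higher by 0.32 with cyproheptadine and by 0.26 with pizotifen and lower by 0.18 with DKI. Mbtps1, one of the proteases that cut ATF6, was lower by 0.17 with cyproheptadine, 0.19 with loxapine and 0.17 with pizotifen. Sensors were also called lower in compounds that left the 10 genes mostly uncalled. Ern1, Eif2ak3, Atf6 and Mbtps1 were called lower with sodium butyrate and with DOP, against 17.8% and 11.2% of all genes. With nicotinamide 3 of them, without Atf6, were called lower, against 7.59%. These 3 compounds had the same combinations of collection day and time, none of which the vehicle shared. Loxapine, nortriptyline and cysteamine also had these combinations. The same-time reference was not computed for the sensors, so the part of collection time in these calls was not tested. Eif2ak3 differed by -0.39 with DOP, -0.26 with sodium butyrate and -0.21 with nicotinamide.

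Genes listed under the PERK and ATF4 arm were called in the same 5 compounds and in others. The activity of PERK was not measured, so these calls are not read as activity of PERK. All 12 were called higher with each of the 5. Of all genes, 20.4% were called higher with DKI, 13.1% with meclizine, 17.5% with cyproheptadine, 8.86% with pizotifen and 10.1% with loxapine. The median difference of the 12 was 1.51 for DKI, 1.23 for meclizine, 0.98 for cyproheptadine, 0.75 for pizotifen and 0.59 for loxapine. Trib3, a target of ATF4 and CHOP, was higher by 3.00 with DKI and by 1.25 with loxapine. In this list the order was DKI, meclizine, cyproheptadine, while in the 10 ER genes the median was largest with cyproheptadine, a difference between lists that was not tested. In STHdhQ7 cells 8 of the 12 were called higher and none lower, against 29.2% and 26.6% of all genes. Between Group A and Group B, 11 of the 12 were lower in Group A, against 21.4%, with a median of -0.51. With sodium butyrate 5 of the 12 were called higher, against 19.6%, and with trichostatin A 3, where 13.1% of all genes were called in either direction. With DOP, nicotinamide and haloperidol none was called in either direction.

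**Figure D4:**
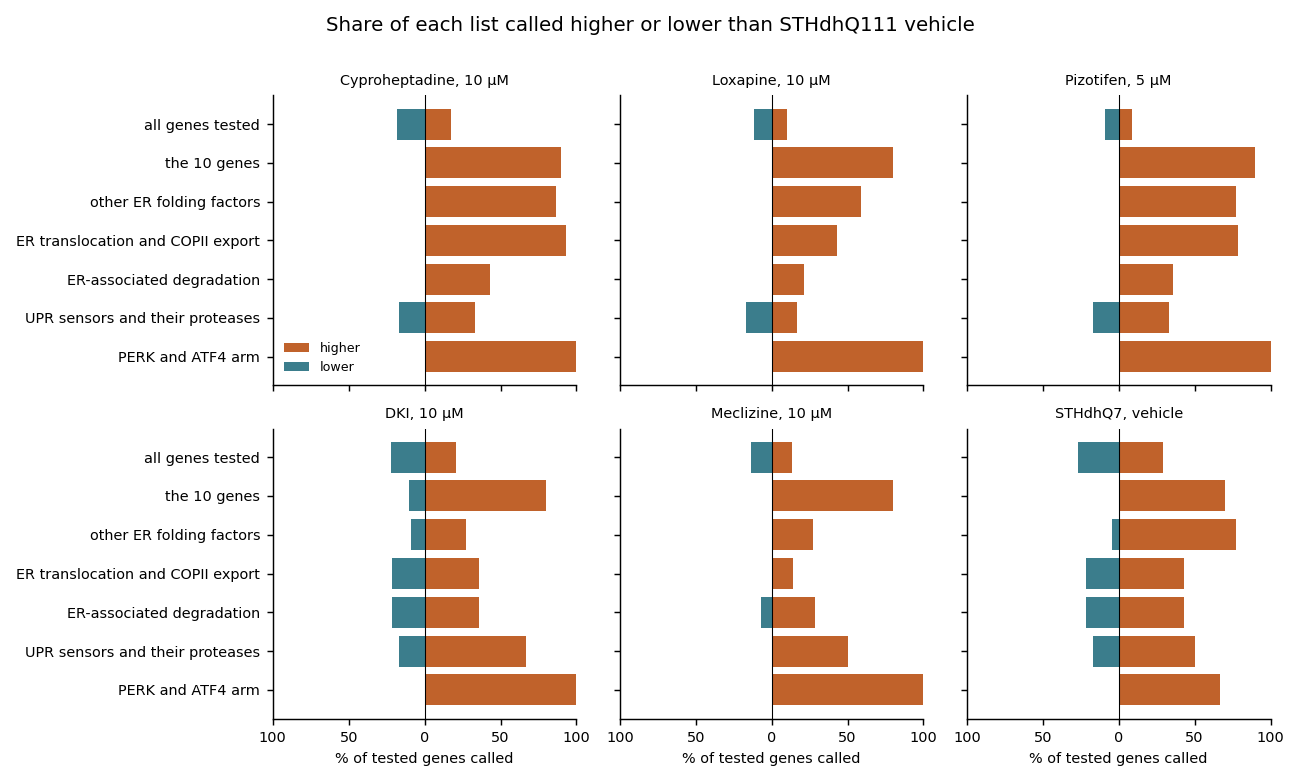
Share of the tested genes of each list (horizontal axis, percent) called higher (right) or lower (left) than the STHdhQ111 vehicle control in the 5 compounds and in STHdhQ7 vehicle cells, with all genes tested at the top of each panel. All 12 genes of the PERK and ATF4 arm were called higher in each compound, and the folding factors other than the 10 genes reached 19 of 22 with cyproheptadine and 6 of 22 with DKI and with meclizine.

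Outside the 10 genes, 33 genes have an ER stress element in a RefSeq window, and 10 of them were tested. With cyproheptadine, pizotifen and loxapine, 4 of the 10 were called higher, Calr, Canx, Creld2 and Syvn1, against 17.5%, 8.86% and 10.1% of all genes, and Acacb lower, against 18.2%, 9.07% and 11.8%. With DKI Canx was called higher, against 20.4%, and Syvn1 and Acacb lower, against 21.9%. With meclizine Canx was called higher, against 13.1%, and Syvn1 lower, against 13.6%. The counts of DKI and meclizine were thus near or below the shares over all genes. These genes were chosen by promoter letters after the values of the 10 genes had been seen, and Calr, Canx, Creld2 and Syvn1 also belong to the lists above.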

How the data were processed

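Poly(A) RNA of 48 samples was sequenced as single-end reads from directional libraries. Per the labels and the study's methods, the authors used Trimmomatic 0.36 for trimming, the GRCm38.p5 transcriptome for alignment and RSEM for quantification, and their own comparisons used DESeq2. The deposited table holds a normalized log2 abundance per gene and sample. The transformation is not given in the sources used here, and whether counting used strand is not stated. No pseudocount was added. Groups, doses, collection days and times came from the sample labels.

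With limma 3.58.1 in R 4.3.3, each gene was fitted with 16 condition terms and collection day terms (30 residual degrees of freedom, moderated variances with a trend). Tests were two-sided, and Benjamini-Hochberg adjusted p-values were taken over 13409 genes in each of 22 comparisons. Summed levels of markers are log2 of sums of linear values. All 10 genes are named, and from each further list up to 4 called genes, those with the largest differences in either direction. The members and lists were chosen with earlier results of these data known. Positions are from GENCODE M21 and promoter windows from RefSeq. The procedure was tested on simulated data. Replicate numbers match the collection day except for replicate 1 of cyproheptadine and of DKI (day 3). Samples of the same day had a mean residual correlation of -0.055, and 9 of 120 pairs of conditions exceeded 0.1, so the numbers were not taken to pair samples. Alternatives were other filters, no day term, the replicate block, collection time, only the samples compared, rescaling, no variance trend, another reference and leaving out each sample. Plots used Python 3.11.15 and matplotlib 3.10.9.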

Additional observations from a re-analysis of the deposited data

How the results depend on the processing

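Over all 22 comparisons, 3109 of 3250 values of single genes under an alternative kept their direction and their side of the threshold, 123 lost their call, 17 gained one, and 1 turned, Sdf2l1 with DOP, at -0.0317 against compounds at or under 1 nM of the same days and times. With that reference the median of the 10 genes was 0.20 for meclizine, -0.0513 for sodium butyrate, -0.00411 for trichostatin A and 0.0147 for fingolimod phosphate, and 1 gene was called for sodium butyrate and 0 for DOP. Fitted to the compared samples alone, which leaves fewer samples to estimate the spread, 5 genes were called for DKI, 1 for DOP, 3 for cyproheptadine against loxapine, 1 for cyproheptadine against meclizine and 0 for meclizine against DKI. For DOP, 1 gene was called with no filter on the mean and 1 with the collection time as a further term. The cause was not tested. For no alternative, here or below, was the share of all genes called computed.

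Leaving out single samples, the genes called ranged from 5 to 8 for meclizine and from 5 to 7 for loxapine against the vehicle. They ranged from 1 to 2 for DOP, 0 to 2 for nicotinamide and 0 to 1 for selisistat. Between compounds they ranged from 1 to 4 for loxapine against meclizine, 0 to 2 for meclizine against DKI and 3 to 6 for cyproheptadine against loxapine. The median ranged from 0.25 to 0.39 for DKI and from 0.41 to 0.56 for STHdhQ7 cells. With the replicate number as a block (replicate block), 9 genes were called for cyproheptadine and 9 for DKI, 8 for meclizine and 8 for loxapine, and the block moved no count by over 1.5 times. Depth is unknown and 3 samples per condition limit the precision.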

Other observations

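Across the 16 condition means with the collection day removed, the genes whose profile was most like that of a member were ranked among the 10733 genes whose mean log2 abundance reached 5. This is a description over conditions that share the vehicle line, days and one table, and no p is given. For Hspa5 the leading genes were Zbtb21 (Pearson r = 0.989), Slc7a1 (0.979), a transporter of cationic amino acids, Tars (0.978), the threonyl-tRNA synthetase, Ccdc47 (0.975), an ER membrane protein, and Dusp4 (0.972), a phosphatase of MAP kinases. The nearest of the other 9 genes was Hyou1, ranked 45 (0.946), and the farthest was Dnajc3, ranked 2527 (0.461). For Herpud1 the leading genes included Bcat1 (0.963), a branched-chain aminotransferase, Nars (0.959) and Gars (0.959), tRNA synthetases for asparagine and glycine, and Dnajb9 (0.958). For Xbp1 they were Sec61a1 (0.943), Azin1 (0.941), Derl1 (0.934), of ER-associated degradation, Cyp20a1 (0.931) and Rpn1 (0.927), a subunit of the oligosaccharyltransferase. Hsp90b1 was ranked 18 for Xbp1 (0.903).

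Among the pairs of the 10 genes, the highest correlations of condition means were those of Dnajb9 with Herpud1 (0.958), Hspa5 with Hyou1 (0.946) and Hsp90b1 with Pdia6 (0.932). The lowest was that of Dnajc3 with Sdf2l1 (0.193).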
